A study of Mus musculus with 2 samples.

Results

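The 10 genes described here encode transcription factors of naive pluripotency, the state of the pre-implantation epiblast and of mouse embryonic stem cells: Nanog, Esrrb, Zfp42, Tfcp2l1, Prdm14, Klf2, Tbx3, Sall4, Zscan10 and Utf1. They were taken by name from a table of 17408 genes, and all 10 were in it. They were measured by droplet single-cell 3' RNA-seq, which counts RNA molecules by unique molecular identifiers (UMIs), in unsorted cultures derived from mouse embryonic fibroblasts (MEFs). The cultures were at day 16 of their conversion to induced pluripotent stem cells (iPSCs). Their STEMCCA cassette expresses Pou5f1, Sox2, Klf4 and Myc in the presence of doxycycline, and the serum medium held LIF, ascorbic acid and doxycycline. The table held 2 libraries, which the labels put in 1 group: replicate 1 with 3109 cells and 54145377 UMIs, and replicate 2 with 3914 cells and 64654306 UMIs. Single cells had between 4753 and 60990 UMIs, and 12 cell barcodes occurred in both libraries. The study's text says that its STEMCCA populations came from independent transgenic mouse systems, but not which system gave each library. A difference between the libraries and a difference between systems therefore cannot be told apart. The libraries are the replicates throughout (n = 2) and the cells are not. The p-values measure only the spread between these libraries. For each gene, limma draws that spread largely from all genes tested together, so SEs and p-values are not those of the gene alone.

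In mouse embryonic stem cells these factors form a network that holds cells in self-renewal. LIF acts through the kinase JAK and the factor STAT3 on targets such as Tfcp2l1, and Wnt acts on Esrrb by relieving repression through TCF7L1. NANOG, OCT4 (encoded by Pou5f1) and SOX2 bind to the regulatory regions of one another and of the other members. Fibroblasts have the network switched off, and its return from the endogenous genes is a late step of reprogramming.

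Cells were clustered with all 10 genes, the reprogramming factors and the other listed genes left out (68 genes), and the clusters were named from separate markers. Cluster 7 was called pluripotent-like: 9 of its 10 markers, such as Dppa5a, Dppa4 and Tdgf1, were at least 2-fold higher than in the other cells. Replicate 1 had 147 of its 3109 cells there (4.73%, exact 95% interval 4.01 to 5.53), and replicate 2 had 392 of its 3914 cells (10.0%, 9.09 to 11). In the same cluster 0 of 11 fibroblast markers passed this mark, as did 4 of 9 epithelial, 2 of 5 trophoblast, 2 of 7 neural and 1 of 4 endothelial markers. The part of these genes in the results below was not tested. Pluripotent-like cells were also deeper, with medians of 28691 and 26078 UMIs against 15214 and 13652 in all other cells. Levels are means per 10000 UMIs, and shares of cells were taken after thinning each cell to a fixed number of UMIs. The other named clusters were 1 fibroblast-like (cluster 9), 1 epithelial-like and 1 macrophage-like. Cluster 3, with 450 and 289 cells, also had 9 of 11 fibroblast markers at least 2-fold higher, but it stayed unnamed because its 10 leading genes held 1 neural marker (Ncam1) and 0 fibroblast markers. In all, 10 of the 14 clusters had 30 cells or more in both libraries.

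RefSeq promoter sequences (GRCm38.p6, the assembly that mm10 denotes) were at hand for 7 of the 10 genes. The 250 bases before the start are shown for 3 of them, because Nanog is the core factor and Zfp42 and Utf1 turned out to have the largest differences from the other cells. Capitals mark matches to motifs that were searched for on both strands, and each sequence runs 5′ to 3′ on the strand of its gene. The stretches are chr6:122707239-122707488 (plus strand) for Nanog, chr8:43307010-43307259 (minus strand) for Zfp42 and chr7:139943606-139943855 (plus strand) for Utf1. Starts here are those of RefSeq and can differ from the GENCODE gene bounds given below. The last part of the Utf1 stretch lies past the GENCODE start at 139943789.
Nanog: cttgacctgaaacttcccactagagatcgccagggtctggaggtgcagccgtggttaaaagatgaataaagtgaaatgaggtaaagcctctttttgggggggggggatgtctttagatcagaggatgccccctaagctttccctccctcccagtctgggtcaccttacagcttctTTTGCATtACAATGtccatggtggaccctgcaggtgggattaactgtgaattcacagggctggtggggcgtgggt
Zfp42: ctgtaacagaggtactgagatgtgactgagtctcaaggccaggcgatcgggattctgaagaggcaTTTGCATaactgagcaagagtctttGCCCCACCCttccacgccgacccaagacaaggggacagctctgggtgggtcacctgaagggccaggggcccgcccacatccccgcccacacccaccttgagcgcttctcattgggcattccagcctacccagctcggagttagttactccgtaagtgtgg
Utf1: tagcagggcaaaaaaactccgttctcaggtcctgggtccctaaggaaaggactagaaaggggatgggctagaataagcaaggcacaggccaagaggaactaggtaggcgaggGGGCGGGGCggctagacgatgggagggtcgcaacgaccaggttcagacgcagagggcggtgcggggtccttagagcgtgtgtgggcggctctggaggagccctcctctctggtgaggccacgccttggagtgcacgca

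The capitals in Nanog are TTTGCAT, the core of the octamer bound by OCT4, from 75 to 69 bases before the start, and ACAATG, a match to SOX factors, from 67 to 62 bases before it, with 1 base between them. Of 32851 promoter windows of this length, 4.12% held TTTGCAT and 10.7% held ACAATG. The pair in this order and spacing was in 2 windows (0.00609%), and both were windows of Nanog, which has 2 listed starts. These 2 windows overlap and hold the same site. Zfp42 held TTTGCAT from 185 to 179 bases before the start and GGGNGGGGC, a GC box of the kind Kruppel-like factors bind, on the other strand from 160 to 152. Utf1 held GGGNGGGGC from 138 to 130 bases before the start, and so did the windows of Klf2 and Esrrb at other places, against 15.5% of all windows. TTCCNGGAA, the palindrome of STAT factors, was in the window of Zscan10 and in 0.913% of all windows. CAAGGTCA, the motif of ESRRB, was in none of the 9 windows of the 7 genes and in 1.33% of all windows. These matches are letters only, and binding was not measured.

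Among these 10 clusters, all 10 genes were at their highest in the pluripotent-like one in both libraries, and 7 of them were close to 0 elsewhere. In limma, 7006 genes had a mean level of at least 0.1 over the 4 profiles (pluripotent-like and all other cells, in each library). Of the 10 members 9 passed this filter, and all 9 were higher in pluripotent-like cells at an adjusted p below 0.05. Of all genes tested, 78.1% were called in either direction and 38.4% were called higher, so a call by itself sets no gene apart here. For 7 of the 9 the level in other cells was under the filter, so they entered the test through the class in which they are high; Klf2 and Tfcp2l1 were above it in both classes. Their median log2 fold was 2.79, on the scale of log2(level + 0.1), against -0.01 over all genes tested. The size of these folds depends on the added 0.1, most of all for genes near 0 in the other cells. The clusters were drawn without these genes but from the same cells.

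**Figure D1:**
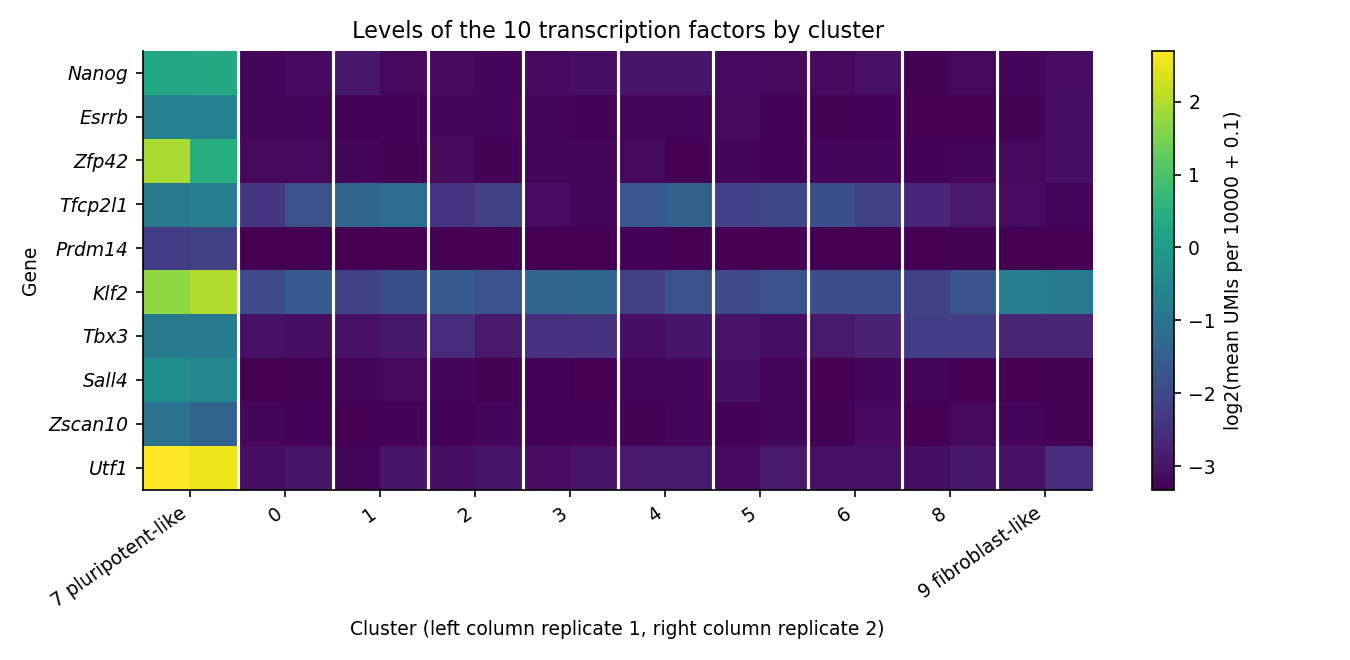
Level of each gene as log2(mean UMIs per 10000 + 0.1), shown by colour, in the 10 clusters with at least 30 cells in both libraries. Each cluster has a column for replicate 1 and one for replicate 2. All rows are brightest in cluster 7, and Klf2, Tfcp2l1 and, more weakly, Tbx3 also vary among the other clusters.

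Nanog, the homeodomain factor at the centre of the network (chromosome 6, 122707489 to 122714633, plus strand), had a level of 1.1 and 1.14 per 10000 UMIs in the pluripotent-like cluster of replicates 1 and 2. In all other cells it had 0.0179 and 0.0146, and the log2 fold was 3.39 (SE 0.10; limma adjusted p 4.59e-17). The libraries lay close together in both classes and the classes were far apart. Sall4, a spalt-like zinc finger protein that partners OCT4 (chromosome 2, 168748332 to 168767943, minus strand), had 0.697 and 0.578 against 0.00589 and 0.00613 (log2 fold 2.79 with an SE of 0.10, adjusted p 9.75e-16 in limma). Utf1, a chromatin-bound factor of undifferentiated cells (chromosome 7, 139943789 to 139945112, plus strand), had the most UMIs of the 10, with 6.39 and 5.73 against 0.0218 and 0.0325. Its log2 fold of 5.60 (SE 0.10; limma adjusted p 5.87e-20) was the largest of the 9. With nothing added to the levels, the ratio was larger for Zfp42 (479 and 236) than for Utf1 (293 and 176). Without thinning, Utf1 had a UMI in 147 of 147 and 391 of 392 pluripotent-like cells. Zscan10, a SCAN-domain zinc finger protein of embryonic stem cells (chromosome 17, 23600856 to 23611019, plus strand), had 0.383 and 0.286 against 0.00438 and 0.00537 (log2 fold 2.04 with an SE of 0.10, adjusted p 2.51e-13 in limma).

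Esrrb, Zfp42 and Prdm14 are factors by which the naive state is often recognised. Esrrb, an orphan nuclear receptor (chromosome 12, 86361117 to 86521628, plus strand), had 0.539 and 0.534 per 10000 UMIs against 0.00568 and 0.00565 in all other cells (log2 fold 2.59 with an SE of 0.10, adjusted p 1.84e-15 in limma). Its libraries differed by less than 1%. Zfp42, also called Rex1 and a zinc finger marker of naive cells (chromosome 8, 43295063 to 43306980, minus strand), had 3.74 and 1.25 against 0.00782 and 0.00532 (log2 fold 4.42 with an SE of 0.19, adjusted p 1.89e-14 in limma). Its SE was the widest of the 9 since its libraries lay far apart, as described below. Because limma pools the spread over genes, this SE is still small beside the gap between its library folds. These log2 folds were 5.16 in replicate 1 and 3.68 in replicate 2. Prdm14, a PR-domain zinc finger protein that holds down FGF signalling and DNA methyltransferases (chromosome 1, 13113457 to 13127163, minus strand), was the lowest, with 0.106 and 0.124. It did not pass the filter. All other cells had 3 Prdm14 UMIs in each library, and the ratio of UMI rates was 192 (95% counting interval 61.8 to 961) in replicate 1, while replicate 2 had 215 (71.7 to 1055).

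Tfcp2l1, Klf2 and Tbx3 were higher in pluripotent-like cells too, but they were also present elsewhere. Tfcp2l1, a CP2-family factor downstream of STAT3 (chromosome 1, 118627945 to 118685168, plus strand), had 0.435 and 0.494 per 10000 UMIs against 0.121 and 0.167 (log2 fold 1.21 with an SE of 0.10, adjusted p 4.03e-10 in limma). Of all its UMIs 76.8% and 66.2% lay outside the class. Klf2, a Kruppel-like factor that is lost when ERK signalling is active (chromosome 8, 72319033 to 72321656, plus strand), had 3.12 and 3.83 against 0.208 and 0.224 (log2 fold 3.49 with an SE of 0.10, adjusted p 4.37e-17 in limma). Tbx3, a T-box factor that also acts in limb and heart development (chromosome 5, 119670669 to 119684724, plus strand), had 0.466 and 0.461 against 0.0478 and 0.0413 (log2 fold 1.96 with an SE of 0.10, adjusted p 1.52e-13 in limma). Tbx3 overlaps Tbx3os1 on the opposite strand, and reads of the pair can be told apart only if the counting used strand. The other 7 genes had between 0.209% and 1.88% of their class level in all other cells. Whether those few UMIs came from free RNA in the droplets was not tested.

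Among the 9 other clusters with enough cells, Tfcp2l1, Klf2 and Tbx3 each varied by cluster. Tfcp2l1 was highest in cluster 1, led by Tac2 and Rnase1, with 0.293 and 0.338 per 10000 UMIs, and next in cluster 4, led by genes of mitosis such as Mki67 and Cenpf, with 0.211 and 0.263. It was lowest in the fibroblast-like cluster 9 (0.0141 and 0.00574) and in cluster 3, led by Mylk (0.0146 and 0.00729). The order from the pluripotent-like cluster through clusters 1 and 4 held without overlap of the libraries, while clusters 6, 5, 0 and 2 overlapped. Klf2 was highest where Tfcp2l1 was lowest. Its highest level outside the class was in the fibroblast-like cluster 9, with 0.488 and 0.462, followed by cluster 3 with 0.291 and 0.306. The remaining clusters overlapped with their neighbours in order. The lowest of them was cluster 4 in replicate 1 (0.121) and cluster 6 in replicate 2 (0.167). The 13 macrophage-like cells had 4 and 14 Klf2 UMIs, a level of 1.15 and 1.70. Tbx3 was highest in cluster 8, led by Mmp11, with 0.115 and 0.110, then in cluster 3 with 0.0791 and 0.0813, and these neighbours did not overlap. None of the other 7 genes reached 0.05 per 10000 UMIs in both libraries in any of these 9 clusters.

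Detection per cell followed the levels. At 3000 UMIs per cell, Utf1 was seen in 79.6% (95% interval 72.2 to 85.8) and 76.3% (71.7 to 80.4) of pluripotent-like cells, and Klf2 in 63.3% and 60.7%. Nanog was seen in 30.6% (23.3 to 38.7) and 27.0% (22.7 to 31.7). Prdm14 was seen in 2.72% and 1.79%, and the other 6 genes lay between 9.18% and 53.1%. In fibroblast-like cells, which should lack the network and had medians of 13291 and 11413 UMIs before thinning, Nanog was seen in 1 of 248 and 0 of 159 cells, the latter allowing a share of up to 1.89%. Klf2 was seen there in 11.7% and 12.6%. Esrrb, Zfp42, Prdm14 and Sall4 were seen in 0 of 248 and 0 of 159 at 3000 UMIs, which allows a share with a UMI at this depth of up to 1.21% and 1.89%. Without thinning, Zfp42 had a UMI in 4 and 3 of these cells and Esrrb in 1 and 3. Intervals and limits cover counting error only. Depth set these shares: without thinning, Nanog had a UMI in 89.8% and 83.7% of pluripotent-like cells and Prdm14 in 28.6% and 25.8%.

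**Figure D2:**
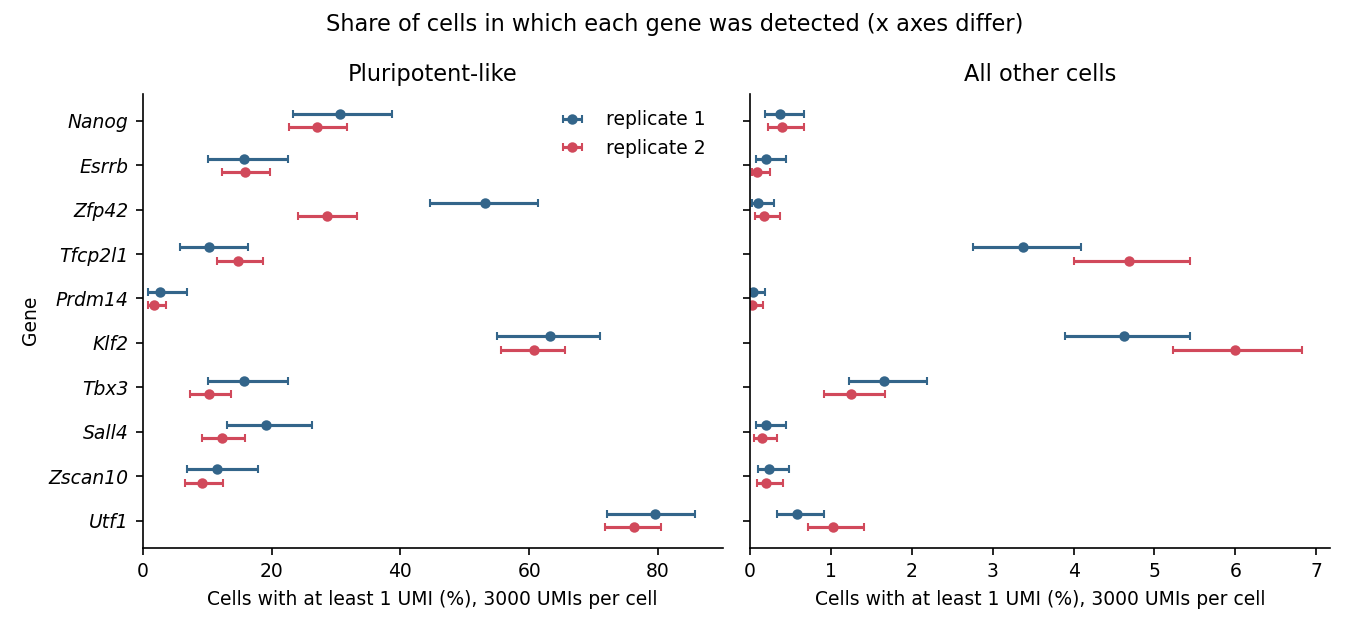
Share of cells with at least 1 UMI of each gene at 3000 UMIs per cell, in pluripotent-like cells (left) and all other cells (right, on a narrower axis). Points are libraries and bars are exact 95% binomial intervals. In the left panel the 2 libraries' intervals separate only for Zfp42, with 53.1% in replicate 1 and 28.6% in replicate 2.

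At the same depth a pluripotent-like cell showed a mean of 3.01 (replicate 1) and 2.57 (replicate 2) of the 10 genes, where all other cells showed 0.114 and 0.140. At least 3 genes were seen in 91 of 147 and 200 of 392 pluripotent-like cells. The same was true of 0 of 2962 and 1 of 3522 other cells. Among pluripotent-like cells 3 and 7 had none of the genes at this depth. At 10000 UMIs the means rose to 5.30 and 5.05, over the 142 and 372 pluripotent-like cells deep enough, and cells with none numbered 1 and 0. Cells outside the class at this depth showed 0.355 and 0.388, and 8 of 2440 and 14 of 2720 of them had at least 3 genes.

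**Figure D3:**
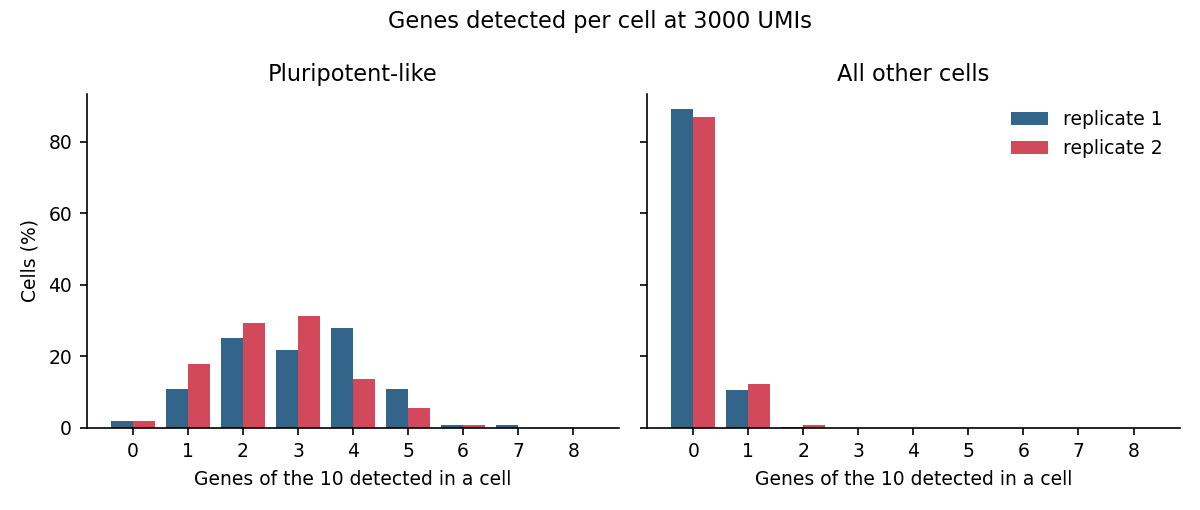
Share of cells (bars, in %) by the number of the 10 genes detected at 3000 UMIs per cell, for pluripotent-like cells (left) and all other cells (right) of each library. Pluripotent-like cells centre on 2 to 4 genes and most other cells have none.

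Within pluripotent-like cells the genes were seen together about as often as their separate shares give. For each of 45 pairs at 10000 UMIs, the share of cells with both genes was divided by the product of the single shares. The median ratio was 1.01 in each library. Nanog and Zfp42, for example, were seen together in 78 cells where the product gives 75 in replicate 1, and in 171 where it gives 155 in replicate 2. Among the 40 pairs whose product came to at least 10 cells in both libraries, 16 were above 1 in both, 6 below 1 in both and 18 on opposite sides. The number at 1.1 or more in both libraries was 0 of 40. A ratio cannot exceed 1 divided by the larger of the 2 shares. Utf1 was in 97.2% and 96.2% of these cells and Klf2 in 88.7% and 93.3%. Pairs with either gene could therefore not reach 1.1 in both libraries, and they hold the median near 1. The widest ratio in replicate 2 was that of Prdm14 and Tbx3, with 19 cells against 13.2, and in replicate 1 this pair had 6 against 5.96. The widest in replicate 1 was that of Prdm14 and Zscan10, with 9 against 6.34 (ratio 1.42). That pair had 13 against 10.6 (1.22) in replicate 2, and was outside the 40 because of its few cells in replicate 1. The lowest in replicate 1 was that of Prdm14 and Sall4, with 5 against 8.11, also outside the 40.

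**Figure D4:**
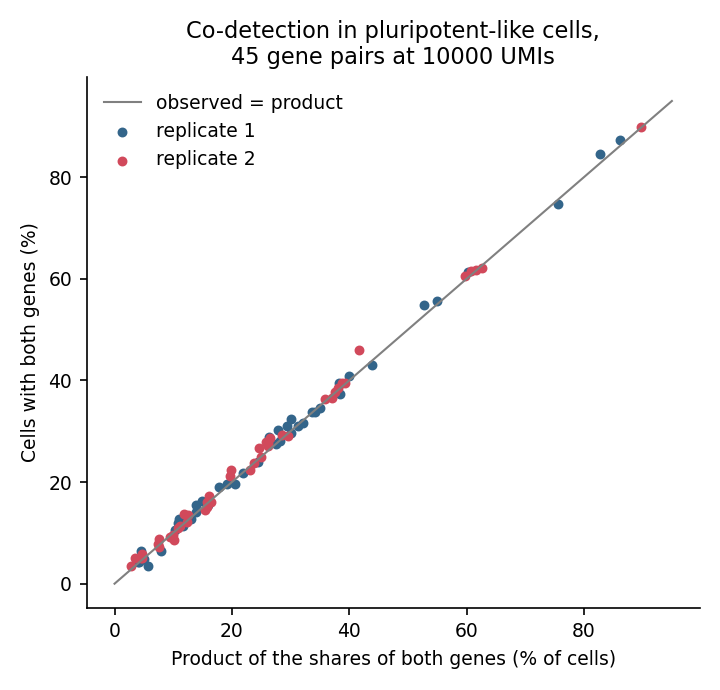
Percent of pluripotent-like cells with both genes of a pair (y axis) against the product of the 2 single shares (x axis) for 45 pairs in each library at 10000 UMIs. Points lie along the line of equality, with a median ratio of 1.01 in each library.

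The spread of UMIs over cells was wide for the 3 most abundant genes and nearer to counting noise for most of the rest. The Fano factor, the variance divided by the mean and 1 for pure counting noise, was 2.47 and 1.61 for Zfp42, 2.53 and 2.14 for Klf2 and 2.17 and 2.11 for Utf1 at 10000 UMIs. Each of these exceeded that of over 94% of the genes averaging 0.1 UMIs or more, whose median was 1.05 and 1.07. The remaining 7 lay between 0.95 and 1.51. Since it rises with the mean for genes that vary, these values are not a ranking at equal level. Klf2 went up to 17 UMIs in a cell in both libraries while 11.3% and 6.72% of cells had none, where a Poisson count of the same mean gives 4.09% and 2.22%. Nanog was at 0 in 38.0% and 34.9% of cells, against 34.8% and 31.0% from a Poisson count.

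Zfp42 stood apart in the comparison of the libraries. Pluripotent-like cells of replicate 1 had 3.74 per 10000 UMIs (1622 UMIs) and those of replicate 2 had 1.25 (1254 UMIs), a log2 ratio of -1.50 on the log2(level + 0.1) scale. Of 6339 genes, 0.300% were at least 2-fold apart between the libraries within this class and 0.158% were at least 2-fold lower in replicate 2. Among the 10 members 1 was past 2-fold, and the others lay between -0.32 (Zscan10) and 0.29 (Klf2). With 1 library on each side there is no test, and an exact two-sided sign-flip over 2 libraries could not go below 0.5. The difference ran through the whole distribution: at 10000 UMIs the median was 3 UMIs in replicate 1 and 1 in replicate 2, and 14.8% and 36.0% of cells had none. Nanog, at the same depth, had a median of 1 in both.

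**Figure D5:**
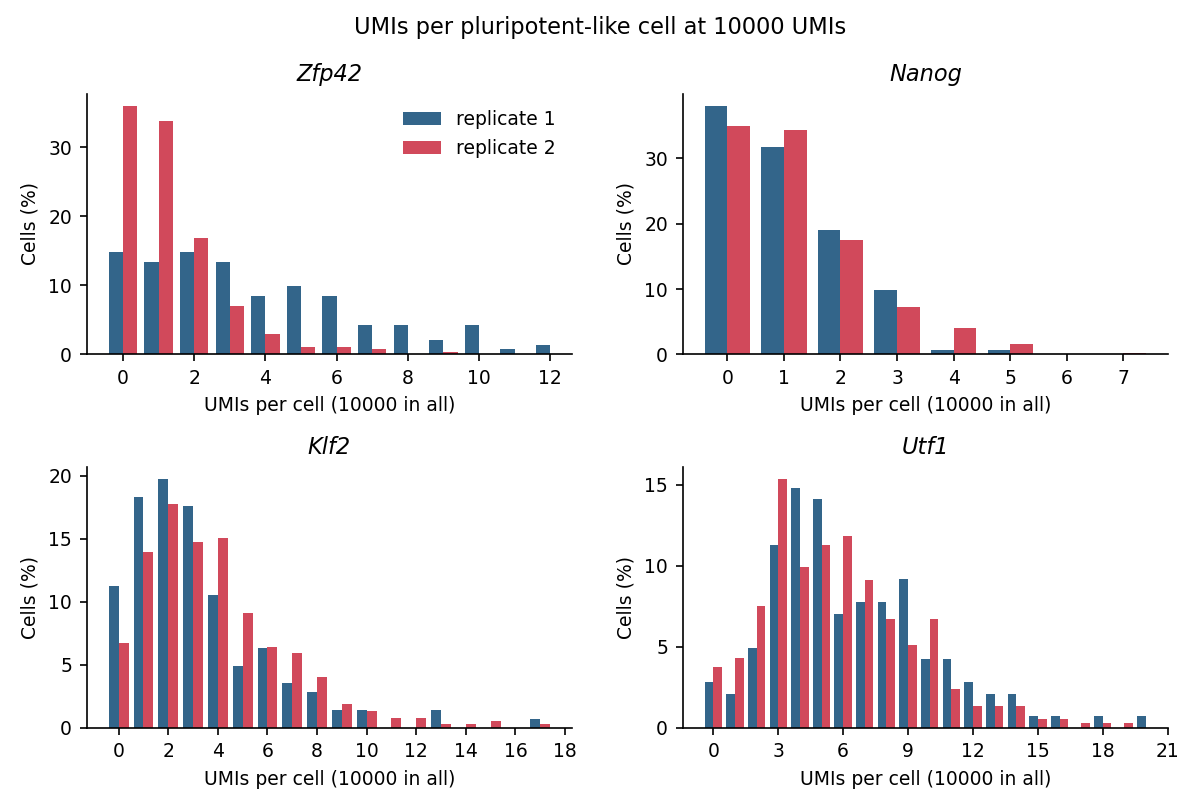
Share of pluripotent-like cells (bars, in %) by UMIs of Zfp42, Nanog, Klf2 and Utf1 per cell at 10000 UMIs, for each library. Zfp42 is shifted to lower numbers in replicate 2 (median 1 against 3), and the other 3 genes overlap closely.

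Esrrb, Nanog, Tfcp2l1, Prdm14 and Tbx3 had log2 ratios of replicate 2 to replicate 1 between -0.01 and 0.15. Smaller differences in the direction of Zfp42 were seen for Zscan10 (-0.32), Sall4 (-0.23) and Utf1 (-0.15), whose ratios of UMI rates were 0.716 (95% counting interval 0.589 to 0.873), 0.860 (0.745 to 0.995) and 0.906 (0.865 to 0.948). Otx2, a factor of the formative state that follows the naive one, was among the 19 genes past 2-fold and went the other way, with 0.353 and 0.913 per 10000 UMIs. It was named here after its values were seen. Within a library, Zfp42 did not go with Otx2: at 10000 UMIs cells with an Otx2 UMI had a mean of 3.71 Zfp42 UMIs (SD over 42 cells 2.90) and cells without had 3.64 (SD over 100 cells 3.06) in replicate 1. In replicate 2 these means were 1.21 (SD over 193 cells 1.31) and 1.2 (SD over 179 cells 1.48). Zfp42 was also lower in replicate 2 among cells with no Y-linked UMI (4.35 and 1.37) and among cells with 2 or more (2.70 and 1.1). Other genes past 2-fold in the direction of Zfp42 included Gm10709 (7.22 and 0.110) and Exosc2 (1.25 and 0.541), likewise named after their values were seen. The pseudogene Zfp42-ps1 is annotated but was not among the genes of the table.

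Other factors of the network were higher in the same cells. From a list of 22 further network factors, 19 were tested and 19 were higher in pluripotent-like cells, with a median log2 fold of 1.95. The largest were Mybl2, a cell cycle factor (3.70), Tet1, which oxidises methylated cytosine (3.54), Klf5, a Kruppel-like factor of the naive state (3.38), and Tcl1, a co-activator of the kinase AKT (3.20), all with limma adjusted p of at most 1.31e-16. The background of genes called higher was 38.4%, and 9 of the 19 were under the filter in other cells, so that they entered the test through the class in which they are high. Of the reprogramming factors, Pou5f1 (log2 fold 5.71), Sox2 (4.52) and Klf4 (2.02) were higher, whereas Myc was under the filter with 0.0614 and 0.0334 against 0.147 and 0.118. Sox2 was under the filter in other cells (0.0341 and 0.0267). It entered the test through the pluripotent-like class, which fixed its direction. RNA of the cassette and of the endogenous genes was not separated here.

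Factors of the formative and primed states were present beside the naive ones. Of 12 listed, 6 were tested, 5 were higher and 0 lower, with a median log2 fold of 1.38, where 38.4% of all genes tested were higher. All 5 were under the filter in other cells and entered the test through the pluripotent-like class, which fixed their direction. These were led by Otx2 (2.71), the DNA methyltransferase Dnmt3b (2.51), the zinc finger factor Zic2 (1.57) and the Wnt effector Lef1 (1.2). The 6 that did not pass the filter included the primed markers Fgf5, with 0.0131 and 0.0324 per 10000 UMIs in pluripotent-like cells, and T, with 0 and 0.00471. The LIF and Wnt input genes went mostly the other way. Of 9 listed, 7 were tested, 1 was higher and 6 were lower, with a median log2 fold of -0.96, where 38.4% of all genes tested were higher and 39.7% lower. Jak1 (-1.49), Stat3 (-1.24) and Il6st, the shared receptor chain of LIF (-1.21), were lower in pluripotent-like cells, while the kinase gene Pim1, a STAT3 target, was higher (1.97). These are RNA levels and do not measure signalling.

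Relatives of the members in the same gene families showed no common direction. Of 14 listed, 13 were in the table and 8 were tested, of which 3 were higher, 3 lower and 2 did not pass, with a median log2 fold of 0.05. This share called is near the 78.1% of all genes tested. Klf7 had a level of 0.124 and 0.112 per 10000 UMIs in pluripotent-like cells against 1.00 and 1.01 in all other cells (log2 fold -2.34; limma adjusted p 9.87e-15), and Klf6 was lower by the same test (-0.99). Klf3 (0.93) and the SALL4 relative Sall1 (1.16), which is also in the list of network factors, were higher.

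In the epithelial-like cluster 10, Nanog and some other members were higher than in the rest of the cells outside the class. The cluster held 65 cells in replicate 1 (1500220 UMIs) and 4 in replicate 2, so it is given for replicate 1. The 4 cells of replicate 2 had 13 UMIs of Sall4 (level 1.31) and 13 of Utf1 (1.29), each in 3 cells. They had 4 UMIs of Nanog in 1 cell and 0 of Zfp42, Esrrb and Zscan10. In replicate 1 the values were as follows. Nanog had 36 UMIs in 15 of the 65 cells, a level of 0.205 per 10000 UMIs against 0.0137 in the remaining cells outside the class and 1.1 in pluripotent-like cells. Utf1 had a level of 0.183 against 0.0182, from 32 UMIs in 10 cells, with 14 of the UMIs in a single cell. Tfcp2l1 had 36 UMIs in 27 cells (0.249 against 0.118). Zscan10 (0.0325 against 0.00375) and Sall4 (0.0212 against 0.00555) were low in both groups of cells. Both were also higher in the epithelial-like cells, but on only 6 and 4 UMIs. Klf2 had 0.163 against 0.209. The pluripotent marker Tdgf1 had 2.78 against 0.139 and Sox2 had 0.279 against 0.0286, and the markers Dppa2, Dppa3 and Dppa4 had 0 UMIs. Zfp42, Prdm14 and Tbx3 had 0 UMIs there, which allows a level of up to 0.0200, and Esrrb had 2. Of the 15 cells with Nanog, 8 had no UMI of Dppa5a, the most abundant pluripotent marker, and the others had one. Over all 65 cells, 18 had a Dppa5a UMI. Of the 15 cells with Nanog, 0 had a UMI of Zfp42. The median depth of these 15 cells was 26754 UMIs against 20783 in the other epithelial-like cells. Whether these droplets held more than 1 cell was not tested.

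The genes whose values per cell went most with each abundant member were only weakly related to it. For 6 members with a level of at least 0.5 in both libraries, 8492 genes were compared over the 147 and 392 pluripotent-like cells, by the lower of the 2 libraries' Pearson r on the deposited log values. These cells differ in depth, which the values share. The nearest genes to Utf1 were Mkrn1 (r 0.42 and 0.33), Tuba1b (0.32 and 0.30) and Hspa8 (0.29 and 0.28). Nearest to Klf2 were Ifitm1 (0.29 and 0.31), Lima1 (0.28 and 0.27) and Sox2 (0.40 and 0.26). For Nanog, led by Slc2a3 (0.21 and 0.20), then Ccnd3 and Timm17b, the values were lower. Zfp42 went most with Gm13580 (0.34 and 0.23), then Stmn2 and Eif2s2, and Sall4 with mt-Cytb (0.29 and 0.19), then Vars and Enah. None of the other 9 members was among the 3 nearest genes of a member.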

How the data were processed

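Single-cell 3' RNA-seq of unsorted day 16 STEMCCA cells was analysed as 2 libraries of 1 group. Per the labels and the study's methods, the authors counted reads with Cell Ranger (2.1.1, mm10), kept cells with over 1500 and under 6000 genes and under 9% mitochondrial RNA, and normalised and log-transformed them in Seurat. The deposited values are the natural log of 1 plus UMIs per 10000 of the cell. After undoing the log, the sum per cell was 10000, and 100% of nonzero values were whole multiples (within 0.01) of the lowest one in the cell, so UMIs were recovered and taken as such. The sources used here do not say whether doublets were removed, and no doublet caller was run.

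Cells of both libraries were clustered with scanpy (1.11.5) on 2000 variable genes chosen per library, scaled to at most 10, with 30 principal components, 15 nearest neighbours, and Leiden clustering (resolution 1) of the graph of shared neighbours. The 68 listed genes were left out. A cluster took a name where at least 3 and at least 50% of a class's markers were 2-fold higher (57 of 66 markers were in the table). No name was given if, among the 10 leading genes, some other class had the larger number of markers. The members, lists and tests were chosen with earlier results of these data known.

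Mean levels per class and library were tested with limma (3.58.1, R 4.3.3) on log2(level + 0.1), with class and library as terms, for genes averaging 0.1 or more, and Benjamini-Hochberg adjustment at 0.05. The script was tested on simulated data. The library term stands for the replicate block, since both classes come from each library. The variance of each gene was moderated towards that of all genes tested, which gave 19.99 total degrees of freedom in the main fit. Shares were taken after random thinning to 3000 or 10000 UMIs, with exact 95% binomial intervals, and a count of 0 was read against 3 counts. Genes were placed with GENCODE M21 on mm10. The text names the 10 members, at most 4 genes per list (the largest changes among those called), the 3 nearest genes per abundant member (those of Esrrb are not reported here), and others where it says so.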

Additional observations from a re-analysis of the deposited data

How the results depend on the processing

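The 9 members called higher in pluripotent-like cells were 9 under all but 1 of the 12 alternatives: pseudocounts of 1 and 0.01, no replicate block, fibroblast-like cells as the comparison, resolutions of 0.5 and 2, 4000 variable genes, a class from each cell's own markers, leaving out cells over 40000 UMIs, and, added after seeing the data, the listed genes kept in the clustering and the other cells without the epithelial-like ones. With no filter on low values 10 were called, Prdm14 included (log2 fold 1.09, limma adjusted p 0.00597). Of all genes tested, 2692 of 7006 were called higher in the main fit and 2425 of 7006 with a pseudocount of 1. The same count was 2555 of 7327 against fibroblast-like cells and 3504 of 17408 with no filter. In the main fit 7 of the 9 members entered the test through the class in which they are high, so the count does not set these genes apart. Without the replicate block the count stayed at 9. Resolution 2 gave the members the same folds, SEs and p-values as the main fit, so it adds nothing to it. Leaving out the filter or the replicate block changes the test but not the folds. No log2 fold of a member reversed, but their size followed the pseudocount: from 1 to 0.01 it ran from 1.06 to 5.42 for Nanog, 0.61 to 5.12 for Esrrb, 0.41 to 4.52 for Zscan10, 1.70 to 7.04 for Zfp42, 2.78 to 7.37 for Utf1 and 0.36 to 1.63 for Tfcp2l1. With no filter the limma adjusted p of the members ran up to 0.0147 (Zfp42). Leaving out a library leaves no test: without replicate 1 or 2 the log2 fold of Zfp42 was 3.68 or 5.16, the widest gap of the 10.

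The mean number of members seen per cell, 2.79 over both libraries, rose to 3.50 at 4500 UMIs and 7.22 without thinning and fell to 1.07 where 2 UMIs were required; leaving out a replicate gave 2.57 to 3.01. The co-detection ratio of 1.01 moved to 1.02 with 4000 variable genes, 1.05 with the class from each cell's own markers, 1.02 at 3000 UMIs and 1.02 without thinning, each by more than the small spread between libraries. Zfp42 was the 1 member past 2-fold between the libraries under every alternative run; apart from the splits by Y-linked UMIs, the log2 ratios ran from -1.07 (pseudocount 1) to -1.57 (pseudocount 0.01). Depth limits the detection of Prdm14, Zscan10 and Tfcp2l1 per cell.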

Other observations

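Pluripotent-like cells with and without a UMI of Dppa3, a maternal-effect gene of naive and germ cells, had the following levels of the 10 factors. Klf2 had 3.24 and 4.12 per 10000 UMIs in cells with a Dppa3 UMI (89 and 212 cells of replicates 1 and 2) and 2.93 and 3.50 in cells without (58 and 180). Utf1 had 6.72 and 6.0 against 5.90 and 5.42. Zscan10 had 0.426 and 0.298 against 0.318 and 0.272. Lower in both libraries with a Dppa3 UMI were Tfcp2l1, with 0.393 and 0.440 against 0.499 and 0.557, Tbx3, with 0.437 and 0.394 against 0.510 and 0.539, and Zfp42, with 3.61 and 1.22 against 3.95 and 1.30. Esrrb had 0.542 and 0.566 against 0.534 and 0.497, and for Nanog, Sall4 and Prdm14 the libraries differed in direction. Cells with a Dppa3 UMI were deeper, with medians of 29424 and 27518 UMIs against 27296 and 24080, and these differences were not tested.

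Cells with an Otx2 UMI at 10000 UMIs had more Klf2 and Sall4 in both libraries. Klf2 had means of 4.05 and 4.23 UMIs with Otx2 and 2.84 and 3.35 without. Sall4 had 0.976 and 0.668 with Otx2 and 0.600 and 0.447 without. Utf1 had 6.95 and 6.49 with Otx2 and 6.23 and 4.93 without. These splits were chosen after seeing the data, and cells are not replicates, so no test was made.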
